A study of Mus musculus musculus x Mus musculus castaneus with 12 samples.

Results

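The comparison described here set 3 male Kdm6a KO clones against 2 wt libraries of male embryonic stem (ES) cells of the CB cross, which together are 5 of the 12 RNA-seq libraries in the series. The 5 libraries were chosen by their cross and sex labels. CB cells come from a Mus castaneus (cast) mother and a C57BL/6 J (BL6) father, so that the single X chromosome is cast and the autosomes carry 1 copy of each genome. The KO group held the exonic clones ΔE2.5 and ΔE2.7 and the promoter clone ΔP2.1, all made by CRISPR/Cas9 with puromycin selection and each grown from a single cell. The wt group held 2 biological replicates, per the study's methods, of the unedited line. Per the study, the wt CB line carries an actin-GFP transgene. All cells were grown with LIF and serum on inactivated mouse embryonic fibroblasts, which were depleted on gelatin before RNA was taken. Each KO library is 1 clone, so the deletion and any other change that a clone picked up cannot be told apart within a clone, which is why the description below rests on what all 3 shared.

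KDM6A (UTX) removes methyl groups from lysine 27 of histone H3, the mark that the Polycomb complex PRC2 writes on silent developmental genes. It also sits in the MLL3/4 complexes, which mark enhancers, where it has roles that do not need its demethylase activity. The gene escapes X inactivation, and male cells carry a Y homologue, Uty, with little demethylase activity. In ES cells many genes of lineage choice carry both the active and the silencing mark at the start site.

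The 4 guides set the bounds of the 2 deletions and are shown because the clones differ by them. Each is written 5′ to 3′ in lower case, followed by its protospacer-adjacent motif in capitals, as listed in the study's oligonucleotide table.
ΔE Left: gaaacctcacgaacccgaaaAGG
ΔE Right: tagcattatctgcataccagAGG
ΔP Left: ggacactgcatgtttgatggAGG
ΔP Right: agctacatactccaaaggagAGG
The positions below are those of the oligonucleotide table on GRCm38/mm10, set against the GENCODE release M21 transcript of Kdm6a with 29 exons (chrX:18162575-18279936, plus strand). The left exonic guide lies at chrX:18163390-18163409, wholly inside exon 2 and on the strand opposite to the transcript. The right exonic guide, chrX:18208733-18208752, covers the start of exon 4 by 17 bases. Between their outer ends lie 45.4 kb that hold exon 3 and parts of exons 2 and 4. The promoter guides lie at chrX:18160528-18160547, upstream of the first exon, and at chrX:18164295-18164314, in the intron after exon 2. They enclose 3.79 kb with exons 1 and 2.

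Kdm6a itself was at 51.0 and 51.7 TPM (transcript abundance per gene length, scaled to a fixed total) in the wt libraries, 2.07 in ΔE2.5, 7.28 in ΔE2.7 and 0.0364 in ΔP2.1. All 3 clones were thus below both wt libraries, and the promoter clone was nearly empty. The log2 fold change over the 3 clones was -3.95, with an adjusted p of 0.19 in edgeR and 0.151 in DESeq2, and the clones differed widely among themselves. The exonic deletion leaves the later exons in place, and reads of those exons still count toward the gene. Uty was at 21.4 and 20.8 TPM in wt and at 15.7, 14.4 and 18.6 TPM in ΔE2.5, ΔE2.7 and ΔP2.1 (log2 fold change -0.30, adjusted p = 0.243 in edgeR), and Kdm6b, the autosomal relative, at 26.7 to 27.8 TPM in wt and 23.6 to 30.4 TPM in the clones. Apart from Kdm6a, the other 18 of 19 tested genes of the demethylase and MLL3/4 list off chromosome 1 had log2 fold changes between -0.37 (Kmt2c) and 0.43 (Ash2l). The tested subunits of PRC2 lay between -0.24 (Lcor) and 0.50 (Phf19), and those of PRC1 between -0.58 (Scml2) and 0.45 (Bcor). DESeq2 called no member of these 3 lists off chromosome 1 at a false discovery rate (FDR) of 0.05 and 1.5-fold.

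The 5 libraries held 49975599 to 53407103 fragments each. The wt replicates were close, with 255 of 12561 tested genes off chromosome 1 at least 1.5-fold apart. ES markers were abundant in all 5 libraries: the 14 core pluripotency genes summed to 8278 to 9221 TPM. Markers of the feeder fibroblasts summed to 2630 and 2558 TPM in wt, 735 in ΔE2.5, 1308 in ΔE2.7 and 2775 in ΔP2.1, with all 30 listed genes above 0 in at least 1 library. The 12 macrophage markers summed to 14.1 to 18.7 TPM, of which Cd68 made up most, and 2 of them passed the filter. Chromosome 1 stood apart in the exonic clones, and stretches of several chromosomes stood apart by allele in the promoter clone.

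**Figure D1:**
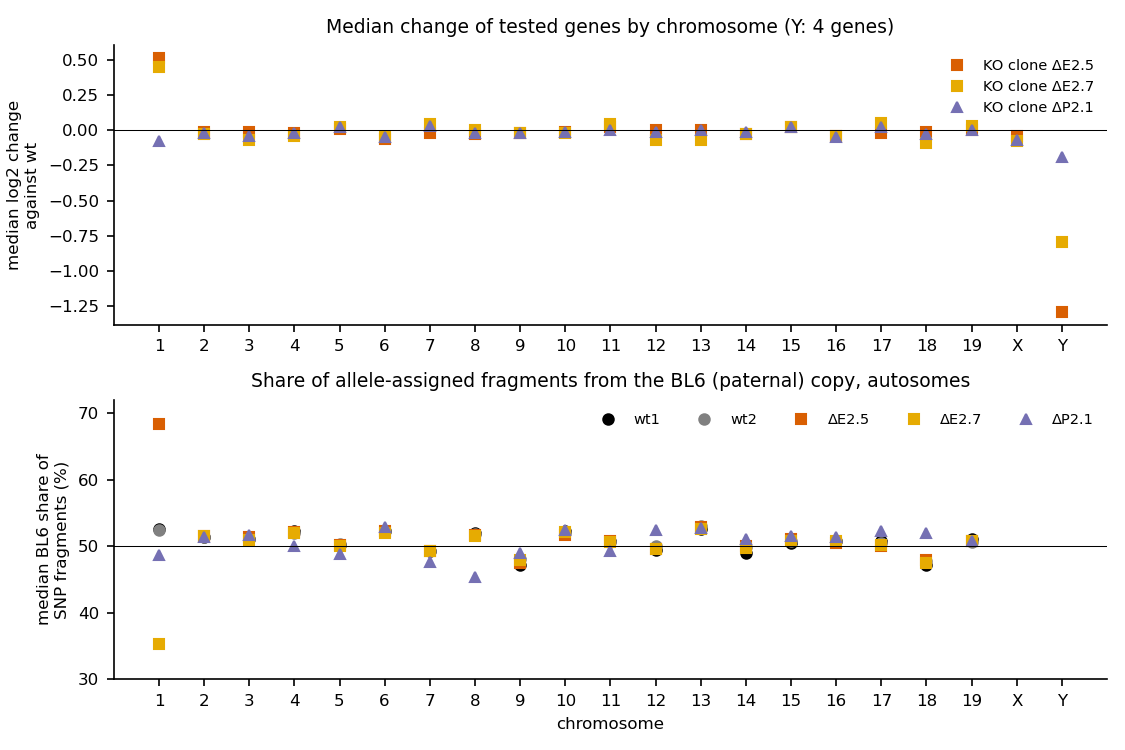
Upper panel, the median log2 change against wt (y axis) of the tested genes of each chromosome (x axis) in the 3 clones; lower panel, the median BL6 share of allele-assigned fragments in percent for the autosomes in the 5 libraries, on an axis that starts at 30. On chromosome 1 the exonic clones sit at 0.51 and 0.45 while ΔP2.1 sits at -0.08, and the BL6 share is 68.3% in ΔE2.5 and 35.3% in ΔE2.7 against 52.5% and 52.4% in wt.

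The plot of medians by chromosome shows why chromosome 1 was set apart. Its genes were higher by a median log2 change of 0.51 in ΔE2.5 and 0.45 in ΔE2.7, and the BL6 share of the fragments that could be assigned by a single-nucleotide polymorphism (SNP) moved to opposite sides, 68.3% and 35.3%. In ΔP2.1 the chromosome 1 median was -0.08 and the share 48.6%. The autosomes off chromosome 1 had medians between -0.09 and 0.05 in every clone. The promoter clone differed in another way: among 8332 autosomal genes with wt shares between 30% and 70%, it had a BL6 share under 25% at 294 genes, against 28 in ΔE2.5, 52 in ΔE2.7 and 4 and 3 in wt. Of the 294, 108 were on chromosome 8, 55 on chromosome 4, 51 on chromosome 1, 31 on chromosome 11 and 23 on chromosome 7. Of the same 294 genes, 4 were among the genes shared by the clones as defined next. Over all tested genes off chromosome 1 the shares of such genes were 1.62% lower and 0.931% higher. Whether the low BL6 shares bear on the shared genes was not tested.

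A gene is called shared below where each of the 3 clones lay at least 1.5-fold from the mean of the 2 wt libraries, on the same side and beyond both of them. The scale was counts per library size (CPM) with TMM scaling, which sets the bulk of genes equal between libraries. The rule is a description and has no p-value. Off chromosome 1, 203 of 12561 tested genes (1.62%) were shared and lower, and 117 (0.931%) were shared and higher. Among these, 145 of the lower and 55 of the higher genes also passed DESeq2 at FDR 0.05 and 1.5-fold, out of 328 lower (2.61%) and 114 higher genes (0.908%) that it called off chromosome 1. The DESeq2 counts rest on both wt libraries: without wt replicate 1 they were 12 lower and 13 higher, without wt replicate 2 they were 7 and 12, and without ΔP2.1 they were 817 and 219. With a wt library left out that group has 1 sample, assumed to vary like the clones, and this holds for every such count given below. edgeR's quasi-likelihood test, with 3 clones against 2 wt libraries, called 0 of 13801 genes in either direction (0%). Its smallest adjusted p was 0.108, and at an unadjusted p under 0.05 and 1.5-fold it had 527 lower and 240 higher genes off chromosome 1. The folds below are therefore values of these 5 libraries, with each DESeq2 result named as such.

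**Figure D2:**
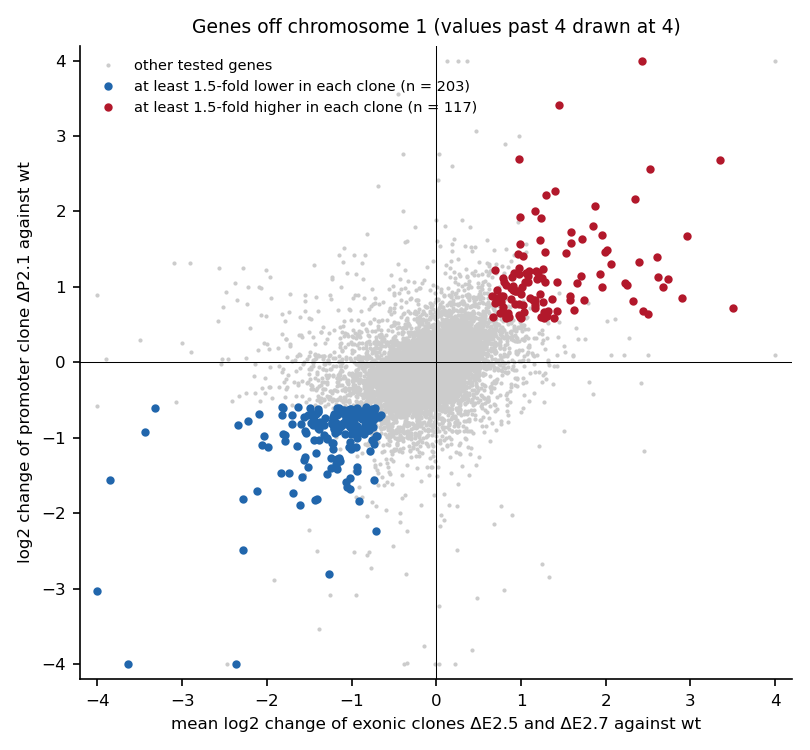
Log2 change against wt of each tested gene off chromosome 1, the mean of the 2 exonic clones on the x axis and the promoter clone on the y axis, with values past 4 drawn at 4. The 203 shared lower genes (blue) and 117 shared higher genes (red) lie in opposite corners, and most of the grey points lie around 0.

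The clones had much that they did not share, as the plot of exonic against promoter changes shows. Alone against wt, ΔE2.5 had 1592 genes at least 1.5-fold lower off chromosome 1, ΔE2.7 had 1298 and ΔP2.1 had 964. The exonic clones had 760 lower genes in common, of which the promoter clone shared 203. Higher genes numbered 581, 766 and 548 in ΔE2.5, ΔE2.7 and ΔP2.1, and 281 were common to the exonic clones. Below the wt mean in all 3 clones, by any amount, lay 28.5% of the tested genes off chromosome 1, and above it 25.9%. Another 222 genes off chromosome 1 were lower in 1 clone and higher in another.

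On the higher side, the Hedgehog pathway had the highest share of shared genes among the lists, 33.3%. Hedgehog ligands bind the receptor PTCH1, which then releases the transducer SMO, and GLI factors switch on target genes that include Gli1, Ptch1 and Hhip themselves. Of the 12 tested genes of the pathway off chromosome 1, 4 were shared and higher, these 3 targets among them, and all 4 passed DESeq2, against background shares of 0.931% and 0.908%.
Gli1 (chr10:127329882-127341974, minus strand), a transcription factor whose level is widely read as pathway output, was at 18.5 and 17.5 TPM in wt and at 61.3, 75.4 and 47.4 TPM in ΔE2.5, ΔE2.7 and ΔP2.1. Ptch1 (chr13:63508328-63573598, minus strand), the receptor and inhibitor, was at 26.3 and 24.5 TPM in wt and at 75.3, 81.7 and 53.7 TPM. For both genes the promoter clone was the lowest of the clones and, as the rule for shared genes requires, above both wt libraries. Hhip (chr8:79965851-80058006, minus strand), a decoy that binds the ligands, was low throughout, at 0.304 and 0.351 TPM in wt and 0.669, 1.20 and 0.864 TPM in the clones.

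The log2 fold change was 1.85 ± 0.22 (SE) for Gli1, 1.55 ± 0.20 for Ptch1 and 1.55 ± 0.32 for Hhip. Adjusted p-values were 0.108 to 0.137 in edgeR and 1.1e-13, 5.9e-11 and 0.00286 in DESeq2, in the same order. Smo was at 56.8 to 59.1 TPM in wt and 41.9 to 59.4 TPM in the clones. Its log2 fold change was -0.07 (adjusted p = 0.812 in edgeR). Sufu, an inhibitor of GLI factors, was at 36.7 TPM in each wt library and 31.3 to 38.7 TPM in the clones. Gli3 was at 26.4 and 24.5 TPM in wt and 15.6, 14 and 22.7 TPM in ΔE2.5, ΔE2.7 and ΔP2.1, a log2 fold change of -0.47 that did not pass either test. The co-receptor Cdon was at 31.4 to 31.7 TPM in wt, 22.5 and 18.6 TPM in the exonic clones and 31.0 TPM in ΔP2.1. Of the ligands, Dhh passed the filter off chromosome 1 and was at or below 1.45 TPM in every library. Another 4 tested genes of the pathway, the ligand gene Ihh with Gli2, Disp1 and Hhat, lie on chromosome 1. They are left out of these counts, and their values are not given here. The median over the 12 genes was 0.09, so that the list as a whole did not stand apart from the median of -0.01 over all tested genes off chromosome 1 as the shared genes did. DESeq2 called 3 genes of the list higher without either wt library and 4 without any 1 clone.

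**Figure D3:**
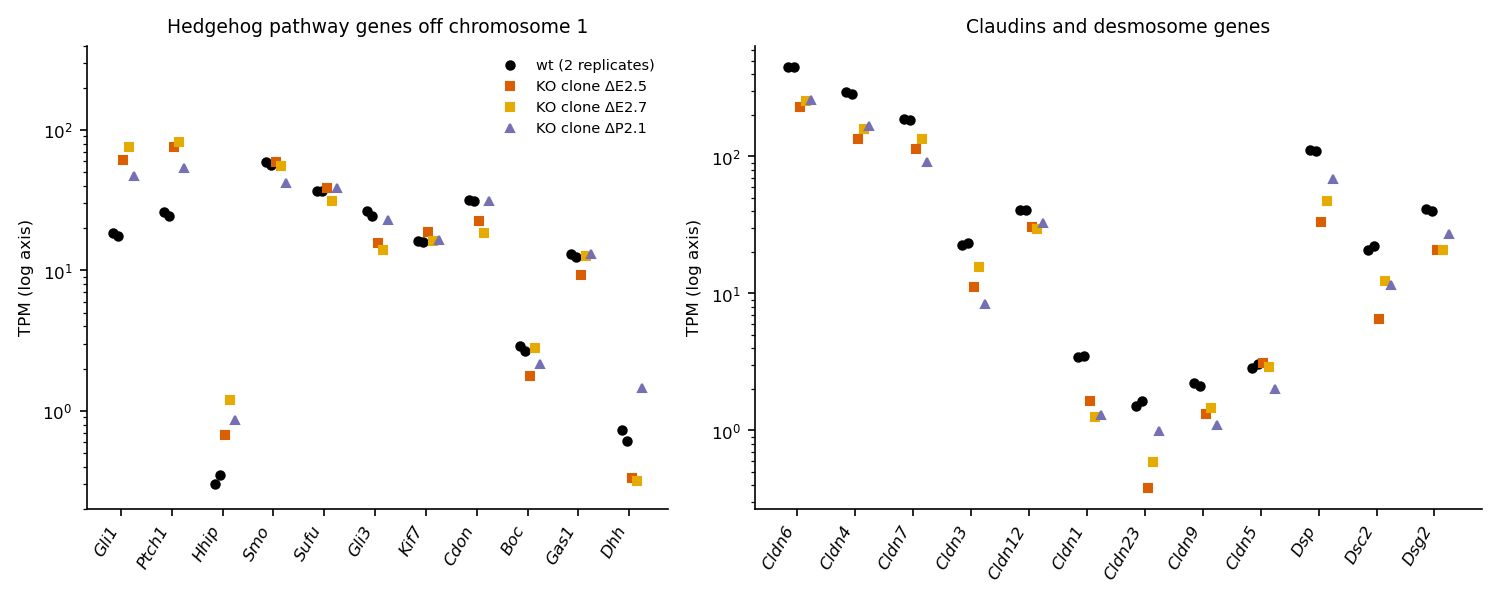
TPM on a log axis for 11 of the 12 tested Hedgehog pathway genes off chromosome 1 (left) and for claudins and desmosome genes (right), with black circles for the 2 wt replicates, squares for the exonic clones and triangles for the promoter clone. Gli1, Ptch1 and Hhip lie well above wt in all 3 clones, Kif7 lies above wt by a log2 fold change of 0.18 and the other pathway genes lie on either side, while 8 of 9 claudins lie below wt in all 3 clones.

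On the lower side, claudins had the highest share of shared genes, 44.4%. Claudins are membrane proteins that seal tight junctions between neighbouring cells. Of the 9 tested claudins, 8 lay below the wt mean in all 3 clones (28.5% of all tested genes), 4 were shared (background 1.62%) and 5 passed DESeq2 (background 2.61%), with a median log2 fold change of -0.78 against -0.01 over all tested genes off chromosome 1.
Cldn6 (chr17:23679249-23682446, plus strand), a claudin typical of the early embryo, was at 453 and 447 TPM in wt and at 231, 256 and 258 TPM in ΔE2.5, ΔE2.7 and ΔP2.1 (log2 fold change -0.78 ± 0.08, adjusted p = 0.108 in edgeR and 1.4e-11 in DESeq2). Cldn4 (chr5:134945119-134946934, minus strand) was at 297 and 284 TPM in wt and 133, 159 and 168 TPM in the clones (-0.84 ± 0.11, adjusted p = 4.7e-07 in DESeq2). The 3 clones thus agreed closely for the 2 most abundant members. Cldn1 was at 3.45 and 3.5 TPM in wt and 1.64, 1.26 and 1.30 TPM in the clones, and Cldn23 at 1.52 and 1.64 TPM against 0.38, 0.588 and 0.995 TPM. Cldn7 was at 189 and 184 TPM in wt and 114, 134 and 90.9 TPM in the clones, and passed DESeq2 (adjusted p = 0.0146) without being shared. Cldn5, the claudin of blood vessel walls, was at 2.85 and 3.04 TPM in wt and 2.02 to 3.12 TPM in the clones, and was the exception.

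The wider list of epithelial and mesenchymal junction genes had 4 shared members among 35 tested, all lower (background 1.62%), and 7 that DESeq2 called lower (background 2.61%) with 0 called higher. Besides Cldn4 and Cldn6, the shared members were the desmosome genes Dsp and Dsc2. Desmosomes anchor keratin filaments at the junction, and desmoplakin (Dsp) makes that link. Dsp was at 112 and 109 TPM in wt and 33.3, 47.4 and 68.6 TPM in ΔE2.5, ΔE2.7 and ΔP2.1 (log2 fold change -1.08 ± 0.28, adjusted p = 0.00509 in DESeq2). Dsc2, a desmosomal cadherin, was at 20.7 and 22.1 TPM in wt and 6.56, 12.4 and 11.5 TPM in the clones, and its partner Dsg2 at 41.6 and 39.8 TPM against 20.9, 20.7 and 27.0 TPM (adjusted p = 0.000271 in DESeq2). The exonic clone ΔE2.5 was lowest or close to lowest for these 3 genes. DESeq2 called 5 of the 35 junction genes without ΔE2.5 and 1 without either wt library, and for the claudins 3 without ΔE2.5 and 1 without either wt library.

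Markers of other cell types differed between the same libraries. The 20 tested feeder fibroblast genes off chromosome 1 had median log2 changes of -1.41 in ΔE2.5, -0.74 in ΔE2.7 and -0.16 in ΔP2.1. Acta2, smooth muscle actin, was at 692 and 683 TPM in wt, 46.2 and 257 in the exonic clones and 960 in ΔP2.1, and Col1a1, the main fibroblast collagen, at 56.3 and 52.1 TPM in wt, 7.54 and 19.9 in the exonic clones and 102 in ΔP2.1. Other members were lower in the promoter clone too. Of the 20, 9 lay below the wt mean in all 3 clones (28.5% of all tested genes). Col1a2 and S100a4 were shared and lower (background 1.62%). Col1a2, a fibroblast collagen, was at 2.83 and 2.76 TPM in wt and 0.159, 0.358 and 1.41 TPM in the clones, and S100a4 at 5.55 and 4.80 TPM against 1.41, 2.29 and 3.04 TPM.
Trophoblast markers, which include keratins of simple epithelia, summed to 2841 and 2808 TPM in wt and to 1057, 1690 and 2127 TPM in ΔE2.5, ΔE2.7 and ΔP2.1. Of the 21 tested, 16 had a negative log2 fold change and 9 lay below the wt mean in all 3 clones (28.5% of all tested genes). None was shared (background 1.62%), and the medians were -0.71, -0.48 and -0.20 in the 3 clones. The most abundant, Krt18, was at 1128 and 1119 TPM in wt and 291, 583 and 747 TPM in the clones (adjusted p = 0.227 in edgeR and 0.0511 in DESeq2). A lower marker sum can come from fewer such cells or from less RNA per cell, which cannot be told apart in bulk RNA. The claudins had median log2 changes of -0.89, -0.47 and -0.74 in ΔE2.5, ΔE2.7 and ΔP2.1. Collagens had medians of -1.27, -0.55 and 0.11 in ΔE2.5, ΔE2.7 and ΔP2.1, keratins -1.56, -0.52 and -0.11, and WNT ligands -1.32, -0.62 and -0.12. The part of feeder or trophoblast RNA in the values of the claudins, the junction genes and these families was not tested.

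**Figure D4:**
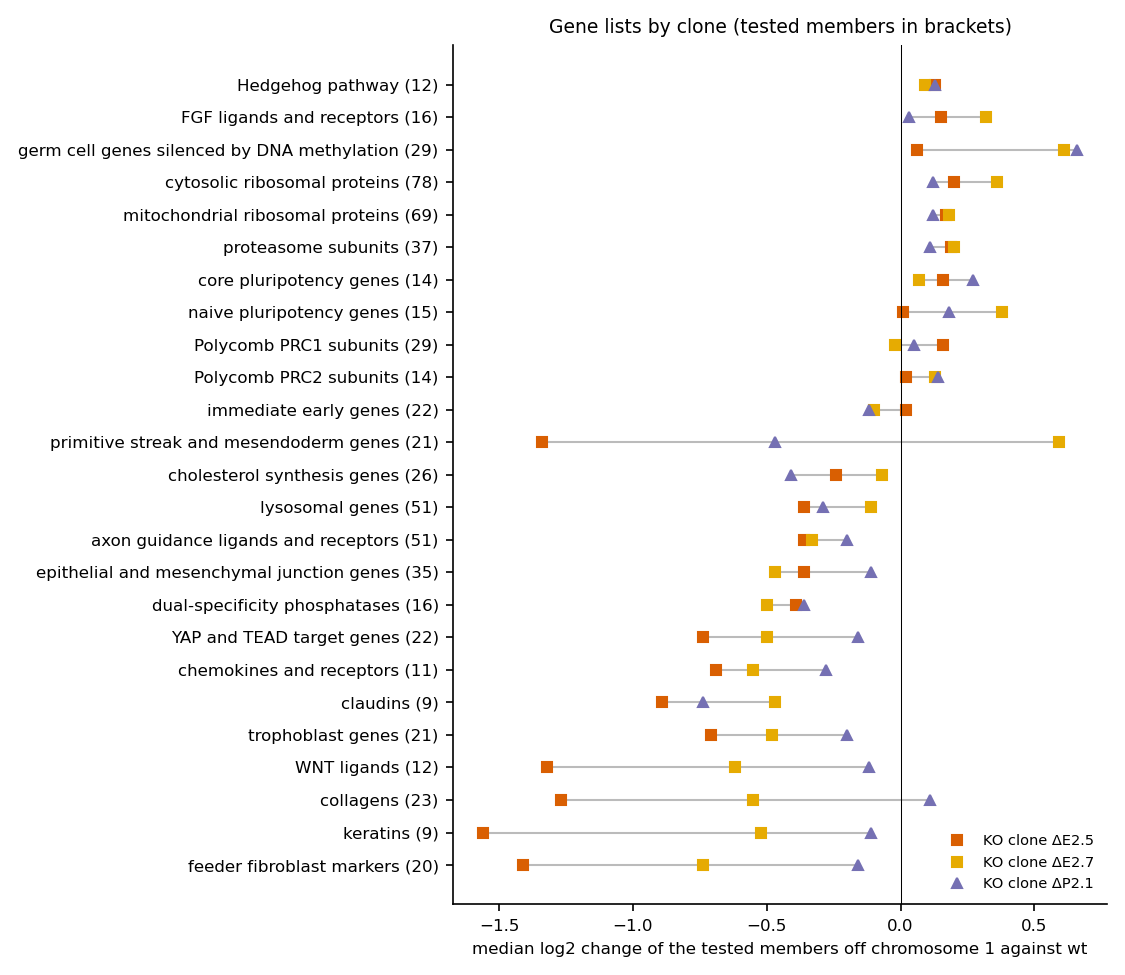
Median log2 change against wt (x axis) of the tested members off chromosome 1 of 25 gene lists (y axis, number of members in brackets) in the 3 clones. Claudins and dual-specificity phosphatases sit low in all 3 clones, while collagens, keratins, WNT ligands and feeder markers are low mainly in the exonic clones and the 3 clones are far apart for primitive streak genes.

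The dual-specificity phosphatase, pluripotency, streak, germ cell and lysosomal lists did not reach the share of shared genes set for naming members, and apart from Foxa2 the genes named from them were chosen after their values were seen. Feedback genes of ERK signalling had 0 shared members among 21 tested (backgrounds 1.62% and 0.931%). Dual-specificity phosphatases switch off MAP kinases, and 13 of 16 tested members lay below the wt mean in all 3 clones (28.5% of all tested genes), with a median log2 fold change of -0.39. In the family 2 genes were shared and lower (background 1.62%) and 3 passed DESeq2 (background 2.61%). Dusp9, an ERK phosphatase that is abundant in ES cells, was at 421 and 411 TPM in wt and 182, 212 and 249 TPM in ΔE2.5, ΔE2.7 and ΔP2.1 (adjusted p = 7.2e-06 in DESeq2), and Dusp8 at 7.22 and 7.32 TPM against 3.05, 2.89 and 4.23 TPM. Dusp6, the classical feedback phosphatase of ERK, was at 191 and 188 TPM in wt and 136, 112 and 113 TPM in the clones. It was not shared. On the scaled counts of the fits, rather than TPM, its change was short of 1.5-fold (adjusted p = 0.000344 in DESeq2).

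Among 22 tested immediate early genes, which respond within minutes to growth signals, 3 were shared and higher (background 0.931%), and 2 of them passed DESeq2 (background 0.908%). Egr1 was at 16.3 and 14.9 TPM in wt and 74.1, 119 and 29.8 TPM in ΔE2.5, ΔE2.7 and ΔP2.1 (log2 fold change 2.34 ± 0.59, adjusted p = 0.016 in DESeq2). Fos was at 6.40 and 6.42 TPM in wt and 15.0, 37.1 and 12.2 TPM in the clones (adjusted p = 0.00426 in DESeq2). Fosb, the third, was at 0.702 and 0.94 TPM in wt and 1.43, 3.76 and 1.40 TPM and did not pass. ΔE2.7 was the highest of the clones for all 3 genes. Other members of the list had values near wt: Junb was at 99.6 and 99.2 TPM in wt and 77.4 to 104 TPM in the clones, Srf at 143 to 146 TPM in wt and 140 to 144 TPM in the clones, and the median of the list was -0.01. Without either wt library DESeq2 called 0 of the 22.

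Chemokines and their receptors guide cell migration, and 3 of 11 tested members off chromosome 1 were shared and lower (background 1.62%). DESeq2 called 2 lower (background 2.61%), 1 without wt replicate 1 and 0 without wt replicate 2. Ackr4, a decoy receptor that takes up chemokines without signalling, was at 6.58 and 7.24 TPM in wt and 1.41, 1.26 and 1.88 TPM in ΔE2.5, ΔE2.7 and ΔP2.1 (log2 fold change -2.11 ± 0.22, adjusted p = 0.108 in edgeR and 2.1e-10 in DESeq2). Cxcl16 was at 41.0 and 41.8 TPM in wt and 20.5, 24.9 and 21.3 TPM in the clones. Its receptor Cxcr6 was near the limit of the filter, at 0.532 and 1.01 TPM in wt and 0.164 to 0.264 TPM in the clones.

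Axon guidance genes, which also steer cells outside the nervous system, had 3 shared lower members among 51 tested (background 1.62%) and 6 that DESeq2 called lower (background 2.61%), with 0 called higher. Sema3b, a secreted semaphorin, was at 19.9 and 18.7 TPM in wt and 3.59, 7.47 and 9.58 TPM in the clones. Sema7a, a membrane-anchored semaphorin, was at 4.85 and 5.31 TPM in wt and 2.39, 3.06 and 2.89 TPM, and the netrin receptor gene Unc5a at 2.57 and 2.27 TPM against 1.21, 1.18 and 1.15 TPM. The promoter clone was nearest to wt for Sema3b and lowest for Unc5a. Without either wt library DESeq2 called 0 of the 51.

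Enzymes that cut the extracellular matrix had 2 shared lower members and 1 shared higher member among 20 tested (backgrounds 1.62% and 0.931%), with 6 called lower and 1 called higher by DESeq2 (backgrounds 2.61% and 0.908%). DESeq2 called 0 of them without either wt library, and 3 lower without ΔE2.5 or without ΔE2.7. Adamts3, a procollagen peptidase, was at 3.05 and 3.41 TPM in wt and 1.08, 1.53 and 1.28 TPM in the clones, and Mmp23 at 17.8 and 17.0 TPM against 8.36, 7.65 and 10.7 TPM. Adamts14, a relative of Adamts3 that acts on the same kind of substrate, went the other way, at 3.85 and 4.13 TPM in wt and 7.06, 9.38 and 6.87 TPM in the clones (adjusted p = 0.000148 in DESeq2). Fibroblasts express many genes of this kind, and the feeder sums above apply to the exonic clones.

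The 218 tested solute carriers, membrane transporters of many substrates, had 6 shared lower members and 1 shared higher member, and DESeq2 called 8 lower and 2 higher. These shares, 2.75% and 0.459% shared, are close to the backgrounds of 1.62% and 0.931%, and DESeq2 called 0 of the carriers without either wt library. The zinc importer Slc39a8 was at 8.18 and 7.77 TPM in wt and 2.39, 3.94 and 2.72 TPM in the clones, and the inositol transporter Slc5a3 at 5.15 and 5.22 TPM against 2.14, 2.58 and 2.82 TPM. Slco2a1, a prostaglandin carrier, was at 2.89 and 2.44 TPM in wt and 1.18, 1.04 and 1.43 TPM, Slc9a7, a sodium-proton exchanger, at 4.04 and 3.59 TPM against 1.94, 1.5 and 1.87 TPM, and the riboflavin transporter Slc52a3 at 6.45 and 5.71 TPM against 2.93, 3.14 and 3.59 TPM. These carriers have no substrate in common. Slc47a1, a drug and toxin exporter, was the higher one, at 2.60 and 2.51 TPM in wt and 5.91, 4.12 and 4.14 TPM in the clones.

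Potassium channels had 2 shared lower members and 1 shared higher member among 34 tested, few beyond the backgrounds of 1.62% and 0.931%. DESeq2 called 3 lower and 1 higher (backgrounds 2.61% and 0.908%), and these calls rest on both wt libraries. Kcnk6, a background channel, was at 13.2 and 12.2 TPM in wt and 6.46, 7.71 and 6.79 TPM in the clones, and Kcna6 at 0.974 and 1.13 TPM against 0.645, 0.497 and 0.537 TPM. Kcns2 was at 0.136 TPM in each wt library and at 0.855, 1.14 and 0.238 TPM in the clones.
Forkhead factors split evenly, with 2 lower and 2 higher among 28 tested (backgrounds 1.62% and 0.931%). DESeq2 called 1 lower and 1 higher, and 0 without either wt library or without ΔE2.5. Foxa2, the pioneer factor of endoderm and floor plate, was at 15.9 TPM in each wt library and 5.07, 7.64 and 2.16 TPM in ΔE2.5, ΔE2.7 and ΔP2.1 (log2 fold change -1.60 ± 0.49, adjusted p = 0.0178 in DESeq2), and Foxb1, a factor of the developing brain, at 1.23 and 1.67 TPM against 0.538, 0.833 and 0.471 TPM. Foxo6 was at 1.69 and 1.62 TPM in wt and 2.49, 3.82 and 2.71 TPM, and Foxn4 at 1.27 and 1.02 TPM against 1.81, 3.76 and 1.65 TPM. Foxa2 was the only 1 of these 4 that passed DESeq2.

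Other lineage lists showed little that all clones shared. The core and naive pluripotency lists, with 14 and 15 tested genes off chromosome 1, had 0 shared genes (backgrounds 1.62% and 0.931%). Sox2 was at 372 and 379 TPM in wt and 602, 629 and 484 TPM in the clones and passed DESeq2 (adjusted p = 0.000398), while Pou5f1 was at 2138 and 2071 TPM in wt and 2286 to 2613 TPM in the clones, and Nanog at 323 and 320 TPM in wt, 195, 449 and 238 TPM in ΔE2.5, ΔE2.7 and ΔP2.1. The 21 primitive streak genes had median log2 changes of -1.34 in ΔE2.5, 0.59 in ΔE2.7 and -0.47 in ΔP2.1, so that the clones differed in direction, and Foxa2 was the 1 shared member. Cdx4, an X-linked caudal factor of posterior identity that is in none of the lists, was shared and lower, at 7.71 and 7.25 TPM in wt and 2.76, 2.19 and 2.73 TPM in the clones (log2 fold change -1.47 ± 0.18, adjusted p = 7.9e-07 in DESeq2).

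Of the 29 tested germ cell genes that DNA methylation keeps silent in other cells, 15 lay above the wt mean in all 3 clones (25.9% of all tested genes). In the list 2 genes were shared and higher (background 0.931%), and DESeq2 called 5 higher (background 0.908%) and 1 lower. The shared genes were Tex19.1 and Rpl10l, and the counts of Rpl10l are uncertain, as given below with the ribosomal genes. Tex19.1, which restrains retrotransposons in germ cells and placenta, was at 75.1 and 71.8 TPM in wt and 126, 129 and 139 TPM in the clones (log2 fold change 0.92 ± 0.08, adjusted p = 0.108 in edgeR and 6.4e-16 in DESeq2). Pnldc1 and Rnf17 were not shared. Pnldc1, which trims piRNAs, was at 19.9 and 19.7 TPM in wt and 33.9, 35.3 and 27.7 TPM in the clones. Rnf17, a Tudor-domain gene of the germ line, was at 24.3 and 25.2 TPM against 38.1, 31.3 and 37.2 TPM. Tex15 was the one called lower, at 5.17 and 5.47 TPM in wt and 3.64, 3.09 and 3.07 TPM. The list's median was 0.06 in ΔE2.5, 0.61 in ΔE2.7 and 0.66 in ΔP2.1, and Dazl, often used as its marker, was at 3.73 to 4.05 TPM in wt and 3.12 to 6.34 TPM in the clones.

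Of 51 tested lysosomal genes, 30 lay below the wt mean in all 3 clones, against 28.5% of all tested genes, with a median of -0.27, 2 were shared and lower (background 1.62%) and 6 passed DESeq2 as lower (background 2.61%) with 0 higher. The shared genes were Arsb and Ctsc. Ctsc, a cathepsin, was at 21.2 and 21 TPM in wt and 9.46, 10.4 and 13 TPM in the clones. Hexa, a ganglioside hydrolase that was not shared, was at 122 and 118 TPM against 59.3, 75.3 and 59.2 TPM. Several families lay on the other side, with most genes above the wt mean in all 3 clones (25.9% of all tested genes). For NADH dehydrogenase subunits this held for 27 of 40 genes (median 0.13), and for mitochondrial complexes III to V for 27 of 43 (median 0.17). It also held for 60 of 78 cytosolic ribosomal protein genes, 52 of 69 mitochondrial ribosomal protein genes and 27 of 37 proteasome genes. The medians of these last 3 families were 0.25, 0.17 and 0.17. DESeq2 called 2 of the cytosolic ribosomal genes, Rpl10l and Rps27 (background 0.908%), and 0 without either wt library, and 0 of the other 2 families.

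The shared ribosomal genes need care, since the mapping to both genomes kept unique reads and these genes have many near-identical copies. Rpl29 was at 0.29 and 0.145 TPM in wt, 1.16 and 1.34 TPM in the exonic clones and 169 TPM in ΔP2.1, so that 1 library holds nearly all of its signal. Rps27 was at 8.85 and 7.10 TPM in wt and 13.1 to 14.4 TPM in the clones, and Rpl10 at 3.92 and 4.72 TPM against 6.23 to 8.23 TPM. Rpl10l, a retrogene that stands in for Rpl10 in spermatogenesis, was at 57.6 and 60.1 TPM in wt and 89.1, 169 and 100 TPM in ΔE2.5, ΔE2.7 and ΔP2.1. The counts of Rpl29, Rps27, Rpl10 and Rpl10l are uncertain for this reason. Ifitm5, 1 of 5 tested interferon-induced transmembrane genes, was the shared member there, on the higher side (background 0.931%). It was at 1.46 and 0.555 TPM in wt and 1.56 to 2.77 TPM in the clones. The lowest clone and the higher wt library were thus closer than the wt replicates were.

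On the Y chromosome, 1 of 4 tested genes was shared and lower (background 1.62%). In a list of 4 genes, 1 shared gene is enough to reach the 15% set for naming members. Eif2s3y (chrY:1010543-1028847, plus strand), which encodes a subunit of a translation initiation factor, was at 46.4 and 46.7 TPM in wt and 0.902, 5.64 and 5.42 TPM in ΔE2.5, ΔE2.7 and ΔP2.1 (log2 fold change -3.47 ± 0.68, adjusted p = 0.132 in edgeR and 0.0049 in DESeq2). Uba1y was at 4.39 and 4.17 TPM in wt and 0.857, 1.85 and 3.42 TPM in the clones, while Ddx3y was at 30 and 31.7 TPM in wt and 28.3, 25.2 and 43.5 TPM. Ddx3y and Uty were thus still expressed in every clone in which Eif2s3y was low. By the clone nearest to wt, Eif2s3y ranked first among the lower genes off chromosome 1 with a mean of at least 1 TPM, and Kdm6a second.

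Among the other genes with the largest shared change, ranked by the clone nearest to wt, most were in none of the lists; Cyp1a1 is in the aryl hydrocarbon receptor and cytochrome P450 lists and Lipg in the fatty acid list. Lower ones were Btn1a1 (2.44 and 2.34 TPM in wt; 0.425, 0.62 and 0.695 TPM in the clones), a butyrophilin, Cyp1a1 (3.33 and 3.64 TPM; 0.13, 0.365 and 1.12 TPM), the main target of the aryl hydrocarbon receptor, and Mab21l2 (4.72 and 4.38 TPM; 0.817, 1.74 and 1.56 TPM), a gene of eye development. Lipg, which encodes endothelial lipase, was at 21.8 and 20.4 TPM in wt and 5.29, 8.38 and 7.04 TPM in the clones (log2 fold change -1.53 ± 0.20, adjusted p = 1.7e-08 in DESeq2). Pstpip2 was at 12.3 and 11.8 TPM in wt and 4.34 to 4.89 TPM, Rasl10a at 6.60 and 7.12 TPM against 2.21 to 2.83 TPM, Fry at 7.93 and 7.82 TPM against 1.85 to 3.48 TPM, and Serinc2 at 17.7 and 17.1 TPM against 6.32 to 7.84 TPM. All 8 passed DESeq2.

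Higher ones were led by Insl3, a peptide hormone of Leydig cells, at 0.268 and 0.234 TPM in wt and 1.79, 1.44 and 1.66 TPM in the clones. R3hdml was at 2.28 and 1.89 TPM in wt and 9.77, 10.5 and 9.05 TPM (log2 fold change 2.30 ± 0.21, adjusted p = 2.8e-12 in DESeq2), and Raet1e, a ligand of the natural killer receptor NKG2D, at 10.9 and 10.3 TPM against 35.6, 42.4 and 32.9 TPM (1.88 ± 0.17, adjusted p = 7.0e-19 in DESeq2). Glod5, on the X chromosome, was at 11.1 and 11.4 TPM in wt and 31.6, 32.6 and 35.8 TPM. The 3 clones lay close together for R3hdml, Raet1e and Glod5. Rapgef4, an exchange factor activated by cyclic AMP, Napsa, an aspartic protease, Tmprss5, a membrane serine protease, Zbtb7c, a zinc finger factor, and Nrg4, an ERBB4 ligand, had wt levels of at most 2.53 TPM and clone levels of 1.15 to 5.59 TPM. Among these last 5, DESeq2 gave no adjusted p for Tmprss5 and called the other 4. It gave none for Insl3 either.

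Over the 98 gene lists, 13 had at least 3 shared members or at least 15% shared members off chromosome 1, and 50 had 0. The lists held 2325 tested genes off chromosome 1, of which 52 were shared and lower and 27 shared and higher. Over all 12561 tested genes off chromosome 1 the numbers were 203 and 117 (1.62% and 0.931%). The 13 are the immediate early, Hedgehog, junction, Y-linked, axon guidance, forkhead, claudin, matrix protease, cytosolic ribosomal, interferon-induced transmembrane, chemokine, potassium channel and solute carrier lists. The lists without a shared gene include the BMP pathway (23 tested), the NOTCH pathway (24), WNT targets (25), the retinoic acid pathway (17), the unfolded protein response (28), cyclins and their kinases (35), DNA methylation genes (19) and the PRC1 and PRC2 subunits. At backgrounds of 1.62% and 0.931%, lists of these sizes can hold 0 shared genes without standing apart.

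Where SNPs allowed it, the shared genes were examined on each parental copy. SNP-assigned fragments come from the same libraries as the total counts and so are no independent check. Of the 188 autosomal shared lower genes off chromosome 1, 89 had a mean of at least 20 assigned fragments per copy. Of these, 81 lay below both wt libraries in all 3 clones on the cast and on the BL6 copy alike, 6 did so on the BL6 copy alone and 2 on the cast copy alone. Of 111 shared higher genes, 28 had enough fragments, and 26 of them lay above wt on both copies. Cldn6 had log2 changes of -0.91, -0.69 and -0.73 on the BL6 copy in ΔE2.5, ΔE2.7 and ΔP2.1, and -0.83, -0.61 and -0.77 on the cast copy. Gli1 had 1.66, 1.88 and 1.39 on the BL6 copy and 2.15, 2.72 and 1.72 on the cast copy, and Ptch1 1.61, 1.89 and 1.19 on the BL6 copy and 1.63, 1.78 and 1.07 on the cast copy.

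**Figure D5:**
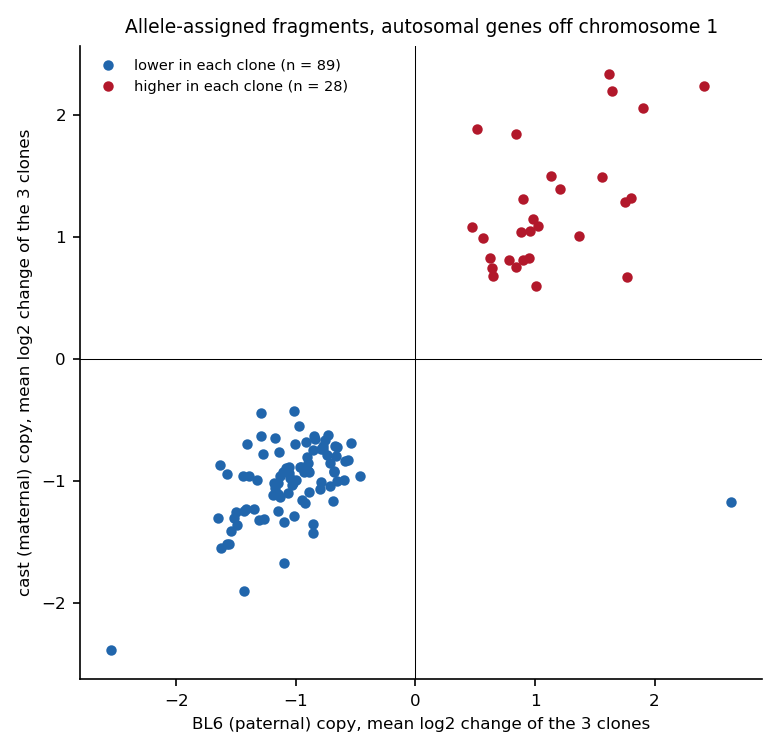
Mean log2 change of the 3 clones against wt of the BL6 copy (x axis) and the cast copy (y axis), from SNP-assigned fragments, for 89 shared lower (blue) and 28 shared higher (red) autosomal genes off chromosome 1. All but 1 of the points lie in the corner where both copies move the same way, and the exception is Pdlim2, whose BL6 copy has a log2 change of 7.87 in ΔP2.1.

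On chromosome 1, 755 genes were tested, and 5 were shared and lower (0.662%) and 17 shared and higher (2.25%). DESeq2 called 5 lower (0.662%) and 40 higher (5.3%), and edgeR had 8 lower and 77 higher genes at an unadjusted p under 0.05 and 1.5-fold. The exonic clones alone had 186 genes at least 1.5-fold higher in common, of which 17 were also higher in ΔP2.1. The 3 lower genes above a mean of 1 TPM were Cntn2, an adhesion molecule of neurons, at 7.80 and 6.85 TPM in wt and 3.12, 3.56 and 3.97 TPM in the clones, Itpkb, an inositol phosphate kinase, at 18.7 and 18.1 TPM against 7.97, 8.79 and 10.0 TPM, and AA986860, at 5.26 and 4.87 TPM against 2.83, 2.49 and 2.23 TPM. The rule for shared genes makes them lower in the exonic clones, where the chromosome as a whole was higher.

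The higher genes of chromosome 1 that ranked first were Crispld1, En1, Stat4, Ptprv and D1Pas1. Crispld1 was at 1.14 and 0.854 TPM in wt and 2.26, 2.39 and 2.30 TPM in the clones, and En1, a homeobox gene of the midbrain and hindbrain, at 1.82 and 1.33 TPM against 3.84, 2.96 and 3.67 TPM. Stat4 was at 8.75 and 8.63 TPM in wt and 18.2, 19.8 and 15.7 TPM, and D1Pas1, an autosomal DEAD-box helicase of the testis, at 44.1 and 42.4 TPM against 97.9, 78.4 and 72.9 TPM. By the rule for shared genes, ΔP2.1 was above both wt libraries for all 5 of these genes, while its chromosome 1 median was -0.08. Ptprv was highest in that clone, at 5.54 TPM against 1.44 and 1.37 TPM in wt and 2.5 and 3.53 TPM in the exonic clones.

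The same test in the reciprocal BC cross gives the values below for the members named above. The BC libraries are separate samples, 5 male ES cell libraries from a BL6 mother and a cast father. They are the exonic KO clones ΔE1 and ΔE3, the promoter KO clone ΔP4 and 2 wt libraries of that cross. Per the study, ΔE1 and ΔE3 go back to the same editing event and share an off-target deletion that takes in Pdha1. These exonic BC clones are therefore not independent of each other. The cross by KO interaction in edgeR was called at FDR 0.05 for 9 of 14301 genes (0.0629%) and in DESeq2 for 635 (4.44%). Of the shared genes off chromosome 1, edgeR called the interaction for 2, R3hdml and Rtl1, and DESeq2 for 54 of the 203 lower and 30 of the 117 higher genes. The shared genes were chosen by their CB values, which also enter the interaction. Their counts are therefore not comparable with the shares over all genes and are no test of a difference between crosses. R3hdml was higher in CB clones (log2 fold change 2.30) and had a log2 fold change of -0.92 in BC, an interaction of 3.21 (adjusted p = 0.0395 in edgeR). For Gli1 the CB and BC values were 1.85 and 0.20, with an interaction of 1.63 (adjusted p = 0.0553 in edgeR and 2.9e-07 in DESeq2), and for Ptch1 they were 1.55 and 0.26 (adjusted p = 0.131 in edgeR and 0.00739 in DESeq2). Cldn4 had -0.84 in CB and 0.32 in BC (adjusted p = 0.151 in edgeR and 0.0194 in DESeq2), and Cldn6 -0.78 and -0.22, for which neither tool called a difference (adjusted p = 0.653 in edgeR and 0.720 in DESeq2). The median BC log2 fold change was 0.01 over the 153 shared lower genes and 0.11 over the 114 shared higher genes that were tested there.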

How the data were processed

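Per the study's methods, the authors estimated diploid expression of 75-base single-end reads with TopHat 2.0.14, mapped them to the BL6 genome (mm10) and a cast version of it with Bowtie2 2.2.5, and kept unique reads with mapping quality of at least 30; the counter is not given in the sources used here. The deposited tables hold estimated counts of fragments per gene, for either genome and by SNP. Here the estimated counts of either genome were rounded. Lengths and positions came from GENCODE M21 for 23310 of 24346 genes; the 485 tested genes without a position entered neither chromosome class. The 13801 genes that exceeded 1 TPM somewhere among the 5 libraries were fitted together in edgeR 4.0.16 (TMM, quasi-likelihood, Benjamini-Hochberg); DESeq2 1.42.0, the study's tool, was the alternative. Per-clone changes used a prior of 0.5 counts. The fits were tested on simulated data. Named genes were the 12 lower and 12 higher shared genes off chromosome 1 and up to 5 each on it, with mean TPM of at least 1, ranked by the clone nearest to wt, plus up to 5 per direction of each described list. The members and lists were chosen with earlier results of these data known. Gm, Rik, Mir, Snor and LOC symbols were not eligible; where a described list had fewer shared genes, its defining members were added. Some genes that the rule names are not reported here. Columns of other samples in the tables numbered 0. TPM per gene compare levels per length. The p-values of KO against wt take their spread from these 5 libraries, and those of the interaction from the male libraries of both crosses.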

Additional observations from a re-analysis of the deposited data

Results flagged for a closer look

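The effect of the KO differed between the CB and BC crosses for 9 genes by edgeR's interaction term at FDR 0.05, given as CB minus BC on the log2 scale; all but R3hdml and Rtl1 were chosen after their values were seen. Rian (6.18), Mirg (6.30) and Meg3 (6.23), maternally expressed RNAs of the imprinted Dlk1-Dio3 region on chromosome 12, had BC log2 fold changes of -5.92, -5.74 and -5.65 and CB values of 0.27, 0.58 and 0.59. Rian was at 76.8 and 75.1 TPM in CB wt and 78.5 to 102 TPM in the CB clones. Rtl1, the paternally expressed gene of the same region, had an interaction of 3.46 and was shared and higher in CB, at 1.07 and 0.874 TPM in wt and 1.67 to 2.19 TPM in the clones, but was at or below 0.221 TPM in every male BC library. R3hdml had 3.21, Gbp4 2.49 and Egln3 1.45. Srgap1 and Aldh6a1 had -1.56 and -1.52, with log2 fold changes of -0.48 and -0.42 in CB and 1.07 and 1.09 in BC.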

How the results depend on the processing

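No paired analysis was possible because the KO clones carry no replicate number shared with the wt libraries. edgeR called 0 genes in each class in the 5-library fit. DESeq2 called 328 lower and 114 higher off chromosome 1 and 5 and 40 on it. The spread was also taken from all 12 libraries, which include male and female BC ones. With that spread edgeR called 25 and 25 off chromosome 1 and 1 and 3 on it. With 1 CB library left out edgeR called 0 to 546 lower and 0 to 154 higher off chromosome 1, and 0 to 8 and 0 to 197 on it, all of the calls without ΔP2.1. Shared genes numbered 443 lower and 338 higher off chromosome 1 (17 and 49 on it) with no TPM filter, 131 and 53 (3 and 8) at a minimum of 5 TPM, 785 and 393 (9 and 52) at a looser fold, and 25 and 31 (0 and 4) at 2-fold. With 1 library left out they were 217 to 760 lower and 141 to 281 higher off chromosome 1, and 5 to 13 lower and 17 to 186 higher on it (760, 281 and 186 without ΔP2.1); with fewer clones the rule is easier to meet. The interaction had 635 calls in DESeq2 and 3 to 308 with 1 CB library left out, 308 without ΔP2.1. Of the 70 named genes, all but Uty were picked because every clone lay at least 1.5-fold from wt on the same side. That none of the 770 values of these genes under the alternatives reversed follows largely from this choice. In DESeq2, on the same 5 libraries, 55 of the genes passed. Genes named above that are not shared, such as Smo and Krt18, are not among the 70. Under 3 scalings no median of the 96 lists moved by more than 0.02; with 1 library left out the medians of 18 lists changed sign. The DESeq2 calls with 1 library left out, chosen after seeing the data, are given with the DESeq2 results. Depth limits genes near 1 TPM, such as Hhip, Kcns2 and Cxcr6.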

Other observations

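Small nucleolar RNA genes, chosen after their values were seen, stood on the higher side in all 3 clones. Of 45 tested off chromosome 1, 11 (24.4%) were shared and higher (background 0.931%) and 0 shared and lower (background 1.62%). A positive log2 fold change was seen for 42 of them. The median log2 fold change was 0.71, against -0.01 over all tested genes off chromosome 1. Their medians were 0.74, 0.82 and 0.42 in ΔE2.5, ΔE2.7 and ΔP2.1. These RNAs are processed from introns of host genes and lack a poly(A) tail, and the reads were counted after mRNA selection.

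Growth factor and imprinted genes held a few shared members outside the described lists, and the 3 below were chosen after their values were seen. Fgf18, a ligand of bone and lung development, was at 4.50 and 4.45 TPM in wt and 15.0, 17.4 and 9.66 TPM in the clones (adjusted p = 5.9e-05 in DESeq2). Lipc, hepatic lipase, was at 0.47 and 0.663 TPM in wt and 4.13, 9.28 and 0.901 TPM in the clones, the opposite side from its relative Lipg. Sgce, a paternally expressed imprinted gene, was at 20.9 and 20.7 TPM in wt and 9.10, 10.5 and 12.4 TPM.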
